A study of Mus musculus with 2 samples.

Results

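The genes described here encode the nuclear-made subunits of the mitochondrial respiratory chain and ATP synthase, their assembly factors, and the translocases that bring proteins into mitochondria. They were chosen by mouse gene symbol, as every named gene that starts with Nduf, Uqcr, Cox followed by a digit, Atp5, Sdha to Sdhd, Timm or Tomm. Of 7409 genes with a named probe on the array, 67 met this rule, and 56 of them were detected on at least 1 array. All 56 were detected on both arrays, so the ratio of each is measured on both sides. Of the 3005 named genes that were detected on at least 1 array, 366 were detected on 1 array only, and the ratios of those are bounds. The 56 genes are 1.86% of these 3005 genes.

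RNA came from mouse embryonic fibroblasts (MEFs) of the outbred NMRI stock. Both cultures had stopped dividing after treatment with the DNA crosslinker mitomycin C, and were plated on gelatine (55000 cells per square cm). The FGF2 culture then spent 24 h in a serum replacement medium made for human embryonic stem (ES) cells with 40 ng/ml of the growth factor FGF2, and the control culture spent 24 h in that medium with no FGF2 added. Each culture was read on 1 Illumina bead array, so there is no replicate check, no p-value can be given, and an effect of FGF2 and any other difference between these 2 cultures cannot be told apart. The number of embryos behind the cells is not stated in the labels.

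The respiratory chain sits in the inner mitochondrial membrane. Complex I takes electrons from NADH and complex II from succinate, complex III passes them to cytochrome c, and complex IV passes them to oxygen. The resulting proton gradient drives ATP synthase, complex V. All but a few subunits are encoded in the nucleus, made in the cytosol, and carried in through the TOM channel of the outer membrane and the TIM complexes of the inner membrane and the space between.

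The promoters of these genes carried letters that are well known from nuclear genes for mitochondrial proteins. RefSeq (GRCm38.p6) promoter windows, from 250 bases before to 50 after each gene start, were available for 57 of the 67 genes, as 61 windows. The palindromic site of the transcription factor NRF1, spelled GCGCATGCGC, stood in 6 of the 61 windows (9.84%), against 1.91% of 3201 windows of all detected named genes and 0.971% of all 32851 windows. The ETS core CCGGAAG, which the mitochondrial regulator GABP binds, stood in 36.1% of the members' windows, against 18.8% of windows of detected named genes and 8.86% of all windows. A YY1 site, spelled AAGATGGCG, stood in 6.56%, 3.12% and 1.40% of the same sets of windows. Both strands were searched, and the letters of these motifs were matched exactly. A match describes the letters and does not show that a factor binds there.

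Any of the 3 motifs stood in 30 of the 61 windows (49.2%), against 22.7% of windows of detected named genes and 10.8% of all windows. About as many of the members' windows held none of them. The sites are shown because these motifs were more frequent in the members' windows than in those of all detected named genes. In the 51 windows of detected members alone, the shares were 11.8% for NRF1, 37.3% for ETS and 7.84% for YY1, the last from 4 windows. The NRF1 sites of the 6 genes follow, each on the gene's own strand, 5′ to 3′, with the match in capitals. In order, they lie at chr15:102671070-102671099 (minus strand), chr5:108434430-108434459 (minus), chr5:115349101-115349130 (minus), chr17:56717692-56717721 (plus), chr4:24897960-24897989 (plus) and chr9:108936668-108936697 (plus) of GRCm38.p6.
Atp5g2: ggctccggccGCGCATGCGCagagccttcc
Atp5k: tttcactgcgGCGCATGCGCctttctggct
Cox6a1: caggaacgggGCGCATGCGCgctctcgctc
Ndufa11: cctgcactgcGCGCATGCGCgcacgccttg
Ndufaf4: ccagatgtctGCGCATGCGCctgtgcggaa
Uqcrc1: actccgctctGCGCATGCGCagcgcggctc
The YY1 sites of 4 genes all lie on the gene's strand just after the annotated start, at chr5:145191500-145191528, chr6:126849097-126849125, chr3:51408915-51408943 and chr13:114388045-114388069, all on the minus strand of GRCm38.p6.
Atp5j2: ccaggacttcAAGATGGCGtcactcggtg
Ndufa9: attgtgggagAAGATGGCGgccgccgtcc
Ndufc1: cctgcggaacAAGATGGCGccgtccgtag
Ndufs4: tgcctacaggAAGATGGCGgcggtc

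For the lowest and the highest of the 56 ratios described below, the whole 250 bases before the gene start are shown, with the matches in capitals. Cox6a1 (chr5:115348959-115349208, minus strand) held an NRF1 match starting 162 bases before the gene start and an ETS match, on the opposite strand, starting 16 bases before it. Timm8b (chr9:50603651-50603900, plus strand) held an ETS match starting 12 bases before the gene start and no NRF1 or YY1 match in this stretch.
Cox6a1: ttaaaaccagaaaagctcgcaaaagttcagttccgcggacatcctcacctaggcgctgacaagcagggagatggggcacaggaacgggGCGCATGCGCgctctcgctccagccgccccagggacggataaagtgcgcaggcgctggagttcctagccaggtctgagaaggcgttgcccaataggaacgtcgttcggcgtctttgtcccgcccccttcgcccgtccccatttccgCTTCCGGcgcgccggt
Timm8b: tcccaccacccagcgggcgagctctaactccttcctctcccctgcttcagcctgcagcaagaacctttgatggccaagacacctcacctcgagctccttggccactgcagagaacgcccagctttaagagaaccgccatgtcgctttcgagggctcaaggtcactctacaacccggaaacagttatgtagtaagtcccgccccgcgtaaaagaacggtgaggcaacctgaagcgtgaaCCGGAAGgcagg

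None of the 56 detected genes differed 1.5-fold between the FGF2 and the control array. Among all 3005 detected named genes, 5.29% lay 1.5-fold or more above control in the FGF2 culture and 6.79% lay 1.5-fold or more below it. At 2-fold or more, the shares were 1.46% above and 2.6% below control. The members' log2 ratios, FGF2 over control, lay between −0.41 (Cox6a1) and 0.38 (Timm8b) around a median of 0.013, beside a median of 0.028 for all detected named genes. Of the 56 genes, 30 lay above 0 and 26 below, beside 1657 above and 1343 below among all 3005 detected named genes. Within 1.2-fold lay 43 of the 56 (76.8%), against 64.5% of all detected named genes. The ratios had an SD of 0.20 among the members and 0.47 among all detected named genes. The quartiles were closer, from −0.14 to 0.16 for the members and from −0.15 to 0.21 for all detected named genes, so the 2 sets differed mainly in their outer genes.

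Signals in this text are quantile normalized intensities, which give both arrays the same distribution, and a ratio is the difference of their log2 values. The error given as ± is the combined bead error of the 2 arrays on the log2 scale. It lay between 0.053 and 0.10 for the 56 genes, with a median of 0.072, and it leaves out variation between cultures. Of the 56 ratios, 14 lay more than 2 bead errors above 0 and 13 more than 2 bead errors below 0, which is 25% and 23.2% of them. Among all 3005 detected named genes the shares were 31.6% above and 24.7% below, so the members' shares were no higher than the background.

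**Figure D1:**
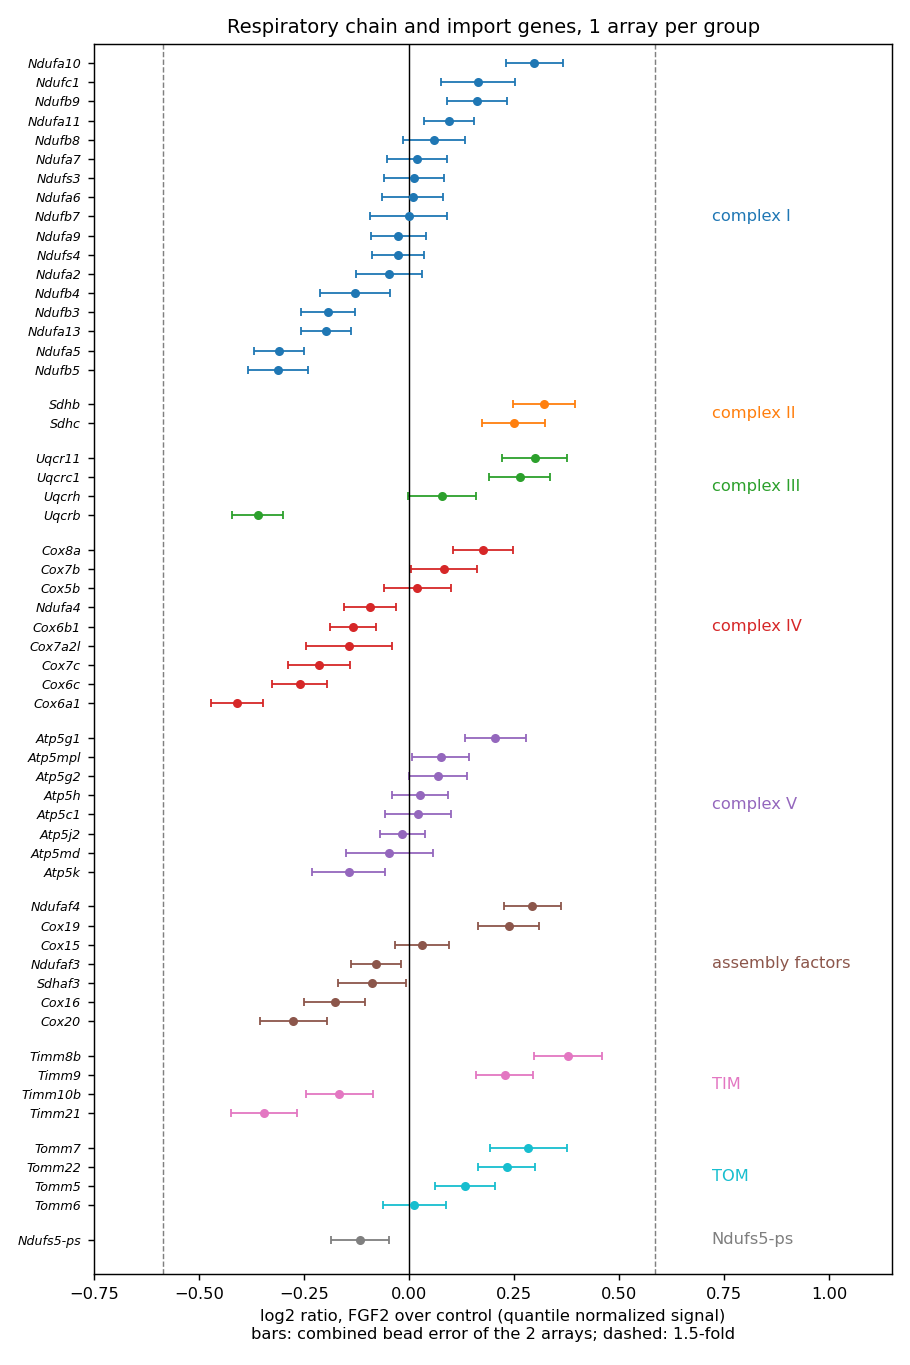
Log2 ratio, FGF2 over control, of each of the 56 detected genes (points), grouped by role, with the combined bead error of the 2 arrays (bars) and 1.5-fold marked by dashed lines. All points lie between −0.41 and 0.38, inside both dashed lines.

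**Figure D2:**
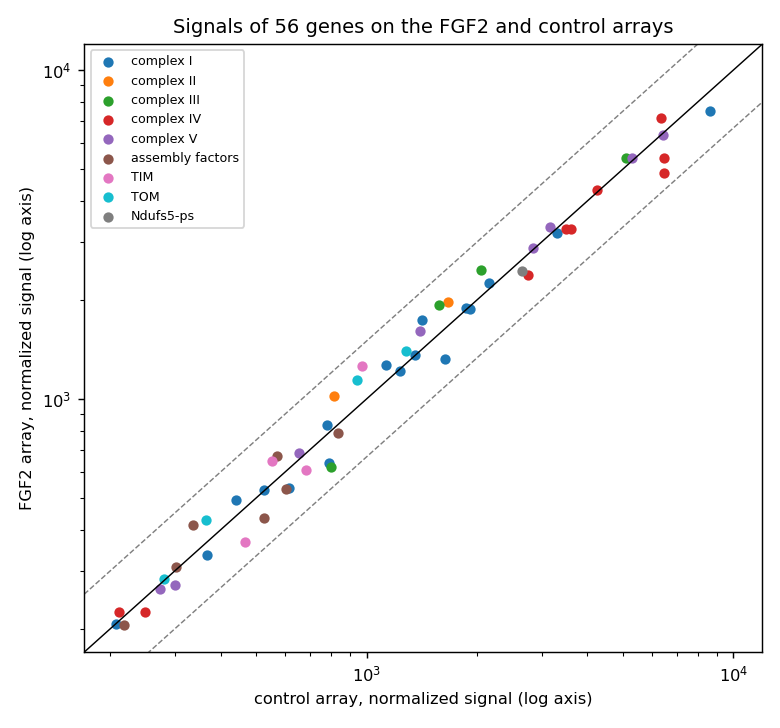
Quantile normalized signal of the 56 genes on the FGF2 array (vertical log axis) and the control array (horizontal log axis), coloured by role, with equality as a solid line and 1.5-fold as dashed lines. The points follow the solid line over the whole range of signals.

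Complex I, the NADH dehydrogenase, had 17 detected subunits, and their ratios centred on 0 (median −0.00087, 8 above 0 and 9 below). Ndufa10, an accessory subunit on the matrix side, had signals of 1741 with FGF2 and 1416 in control, the highest ratio of the complex (0.30 ± 0.067, 1.23-fold higher). Ndufb5, an accessory subunit of the membrane arm, had 637.7 with FGF2 and 791.4 in control (−0.31 ± 0.072, 1.24-fold lower). Ndufa5, an accessory subunit of the peripheral arm, had 1321 with FGF2 and 1636 in control (−0.31 ± 0.059). These 3 are the outer members of a group in which 14 of 17 lay within 1.2-fold.

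The core subunit Ndufs3, which belongs to the electron-transferring arm, had 1364 with FGF2 and 1352 in control (0.013 ± 0.071). A dimmer probe of Ndufs3 gave 0.22 ± 0.067. Ndufs4, an accessory subunit whose loss causes a Leigh-like disease in mice, had 1876 with FGF2 and 1911 in control (−0.026 ± 0.062), and its dimmer probe gave −0.26 ± 0.062. For these 2 genes the probes of 1 gene differed by 0.21 and 0.23, farther than the median distance of the members from 0 (0.14). Ndufa13, which is also known as GRIM-19, had the highest mean signal of the complex, at 7520 with FGF2 and 8620 in control (−0.20 ± 0.059). Among other accessory subunits, Ndufb3 was at −0.19, Ndufb4 at −0.13, Ndufb9 at 0.16 and Ndufc1 at 0.16. Ndufa2, Ndufa6, Ndufa7, Ndufa9, Ndufa11, Ndufb7 and Ndufb8 lay between −0.048 (Ndufa2) and 0.095 (Ndufa11).

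Complex II, succinate dehydrogenase, also belongs to the citric acid cycle. Its iron-sulphur subunit gene Sdhb had 1019 with FGF2 and 815.9 in control (0.32 ± 0.074, 1.25-fold higher), and the membrane anchor gene Sdhc had 1977 with FGF2 and 1664 in control (0.25 ± 0.074, 1.19-fold higher). Both lay more than 2 bead errors above 0. With 2 detected genes, the complex had the highest median of the groups, 0.28. The flavoprotein gene Sdha was not detected, with signals of 120 with FGF2 and 122 in control.

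Complex III, the cytochrome bc1 complex, had 4 detected subunits with a median of 0.17, and 1 of them stood apart. Uqcrb, a small subunit, had 622.8 with FGF2 and 799.2 in control (−0.36 ± 0.060, 1.28-fold lower). Uqcr11, another small subunit, had 1933 with FGF2 and 1571 in control (0.30 ± 0.077), and the core protein gene Uqcrc1 had 2463 with FGF2 and 2051 in control (0.26 ± 0.072). Uqcrh, the hinge protein, had 5384 with FGF2 and 5101 in control (0.078 ± 0.081), within its bead error of 0. Subunits of this 1 complex therefore differed among themselves by up to 0.66 on the log2 scale.

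Complex IV, cytochrome c oxidase, had the lowest median of the groups, −0.13 over 9 genes, with 6 below 0 and 3 above. In the authors' deposited value table the assembly factors had a lower median, −0.035, than complex IV, −0.0020. Cox6a1, the widely expressed form of subunit 6a, had 4872 with FGF2 and 6470 in control, the lowest ratio of all 56 genes (−0.41 ± 0.061, 1.33-fold lower). A second Cox6a1 probe had 4737 with FGF2 and 6214 in control and gave −0.39 ± 0.065, so both probes agreed within their bead errors. Cox6c had 5411 with FGF2 and 6482 in control (−0.26 ± 0.064), and Cox7c had 2380 with FGF2 and 2761 in control (−0.21 ± 0.075). Both encode small membrane-spanning subunits. Cox6b1, which faces the space between the membranes, was at −0.13 ± 0.055 on its brighter probe and −0.13 ± 0.068 on its dimmer one.

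Ndufa4, named for complex I but a subunit of complex IV, was at −0.093 ± 0.063, and Cox7a2l, which helps join complexes III and IV into supercomplexes, at −0.14 ± 0.10. On the other side of 0 were Cox8a, with 7155 with FGF2 and 6331 in control (0.18 ± 0.071), Cox7b at 0.083 and Cox5b at 0.020. The complex thus held genes more than 2 bead errors from 0 in both directions, 4 lower and 1 higher. The muscle and heart form Cox7a1 was not detected, with signals of 174.6 with FGF2 and 175.9 in control. The tissue forms Cox4i2, Cox6a2, Cox6b2, Cox7b2, Cox8b, Cox8c, Ndufa4l2 and Tomm20l, and Cox7a2, the widely expressed partner of Cox7a1, have no named probe here.

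Complex V, ATP synthase, had the narrowest spread of the groups with at least 4 genes (SD 0.10; in the authors' deposited value table that of TOM was narrower, 0.15 against 0.18), and all 8 detected genes lay within 1.2-fold around a median of 0.024. Atp5c1, which encodes the rotating central shaft, had 2883 with FGF2 and 2841 in control (0.021 ± 0.079). Atp5h, of the peripheral stalk, had 5397 with FGF2 and 5300 in control (0.026 ± 0.066), and the membrane subunit gene Atp5j2 had 6361 with FGF2 and 6431 in control (−0.016 ± 0.053). Atp5g1 and Atp5g2 encode the same mature ring subunit from different precursors. They were at 0.21 ± 0.073 and 0.069 ± 0.069, and Atp5g1, with 1608 with FGF2 and 1395 in control, was the 1 gene of the complex more than 2 bead errors from 0. Atp5mpl was at 0.076, Atp5md at −0.047 and Atp5k, a subunit at the dimer interface, at −0.14, with signals of 271.5 with FGF2 and 299.95 in control.

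Assembly factors build the complexes without staying in them, and 7 were detected (median −0.078, 3 above 0 and 4 below). Ndufaf4, which acts early in complex I assembly, had 413.1 with FGF2 and 337.1 in control (0.29 ± 0.068). Its partner Ndufaf3 had 790.5 with FGF2 and 834.2 in control (−0.078 ± 0.059). Among complex IV factors, Cox20, which guides a mitochondrially encoded subunit, had 434.6 with FGF2 and 525.8 in control (−0.27 ± 0.080). Cox16 was at −0.18, the haem A synthesis enzyme Cox15 at 0.031 and Cox19, a small protein of copper delivery, at 0.24, and the complex II factor Sdhaf3 was at −0.087. Members of this group therefore lay on both sides of 0 by similar amounts.

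TOM forms the entry gate of the outer membrane, and all 4 detected subunits lay above 0 (median 0.18). Without scaling 1 of the 4 lay above 0 (median −0.062), and with cyclic loess 3 did. Among all 3005 detected named genes 1657 lay above 0, with 771 without scaling and 1478 with cyclic loess. Tomm7, a small subunit, had 1144 with FGF2 and 939.6 in control (0.28 ± 0.092), and the central receptor gene Tomm22 had 428.8 with FGF2 and 365.1 in control (0.23 ± 0.068). The small subunits Tomm5 and Tomm6 were at 0.13 ± 0.072 and 0.013 ± 0.074, with Tomm6 below the median of all genes. The channel gene Tomm40 and the receptor genes Tomm20 and Tomm70a were not detected, so the group shown is the small subunits and 1 receptor.

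TIM genes had the widest spread of the groups (SD 0.34 over 4 detected genes, median 0.031). With the mean of all detected probes per gene it was 0.295, below the 0.30 of complex III. Timm8b and Timm9 encode small chaperones of the space between the membranes. Timm8b had 1262 with FGF2 and 970.6 in control, the highest ratio of all 56 genes (0.38 ± 0.080, 1.30-fold higher), and Timm9 had 647.6 with FGF2 and 552.9 in control (0.23 ± 0.068). Timm10b, a relative of these chaperones in the carrier translocase, had 608.5 with FGF2 and 682.6 in control (−0.17 ± 0.079). Timm21, a subunit of the presequence translocase, had 366.3 with FGF2 and 465.4 in control (−0.35 ± 0.079, 1.27-fold lower), but −0.11 ± 0.076 on another detected probe. The brightest probes of these 4 genes thus spanned 0.72 on the log2 scale.

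A probe assigned to the pseudogene Ndufs5-ps had 2446 with FGF2 and 2653 in control (−0.12 ± 0.069). Its parent gene Ndufs5 has no named probe, and whether the probe reads the parent was not tested. The RefSeq table also lists pseudogenes of Atp5c1, Atp5k, Cox5b, Cox7c and Uqcrh, whose probes may read both.

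The 11 genes whose brightest named probe was not detected on either array were Ndufab1, Ndufb2, Sdha, Cox7a1, Ndufaf6, Ndufaf7, Timm23, Timm29, Tomm20, Tomm40 and Tomm70a. Tomm70a came closest to the detection score of 0.99, with 0.987 on both arrays, while the lowest scores among detected genes were those of Ndufb7, 0.996 with FGF2 and 0.998 in control, and of Sdhaf3, 0.996 with FGF2 and 0.999 in control. Several of the 11 encode parts that working mitochondria need, so a probe under the threshold does not show that its gene is silent. Of 135 protein-coding genes in the RefSeq table whose symbols meet the rule, 69 have no named probe and are not analysed here, among them 21 of complex I.

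Where a gene had several detected probes, these give a second view of the error. This was so for 5 members, and the differences between probes were 0.018 for Cox6a1, 0.0028 for Cox6b1, 0.21 for Ndufs3, −0.23 for Ndufs4 and 0.24 for Timm21. Across 192 named genes with exactly 2 probes detected on both arrays, the median absolute difference was 0.14 and the 90th percentile 0.38. The lowest and highest ratios of the 56 genes, −0.41 and 0.38, were about as far from 0 as that percentile. For the lowest, Cox6a1, the 2 probes differed by only 0.018, and the highest, Timm8b, has 1 probe.

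The sign of a ratio this small depended on how the arrays were scaled. Without scaling, 8 of the 56 genes lay above 0 and 48 below, and in the authors' deposited value table there were 37 above and 19 below. Of all 3005 detected named genes, 771 lay above 0 without scaling and 1842 in the value table. Their median moved likewise, to −0.14 without scaling and 0.12 in the value table. Relative to that median, the members' median lay between −0.036 and −0.015 under all 6 scalings. On the same relative scale, 1 member passed 1.5-fold in the value table, Timm21 at −0.60, and Uqcrb without scaling was at −0.47. Of the 56 genes, 18 lay above the median of all genes under each of the 6 scalings, 28 below it and 10 changed side. Relative to that median, no scaling and median scaling give the same values by construction, so these are 5 distinct readings. The share of all detected named genes that keep 1 side is not given here, so these counts are not a result about the members. Below it under each were 11 of 17 genes of complex I, 6 of 9 of complex IV and 4 of 7 assembly factors. So were 2 of 8 of complex V, 2 of 4 of TIM, 1 of 4 of TOM and 1 of 4 of complex III. Above it under each were both genes of complex II, 3 of complex III, 3 of TOM and 3 of complex I. So were 2 each of complex IV, TIM and the assembly factors, and 1 of complex V. The complex IV median, relative to all genes, lay between −0.17 and −0.12, and the complex II median between 0.17 and 0.27.

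**Figure D3:**
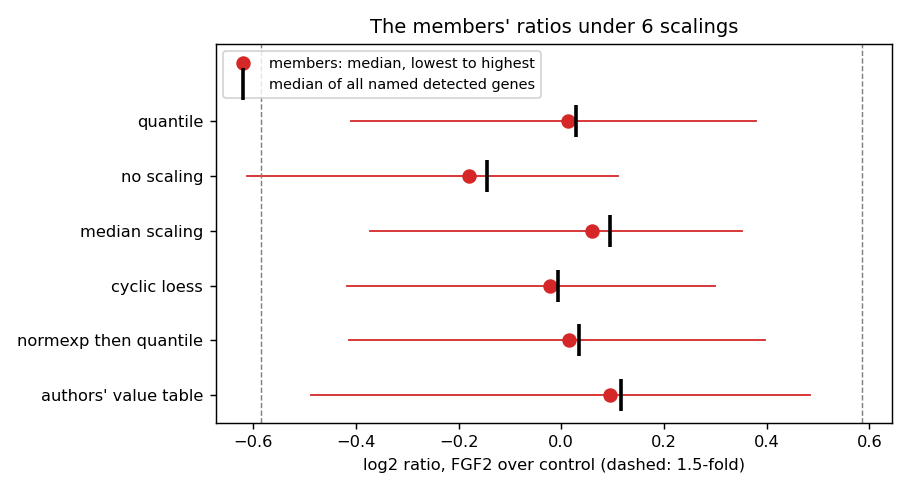
Median (red point) and lowest to highest (red line) log2 ratio, FGF2 over control, of the 56 genes under 6 scalings, with the median of all named detected genes as a black bar and 1.5-fold as dashed lines. The red point stays beside the black bar in every row, and the line passes a dashed line only without scaling, where Uqcrb was at −0.61.

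Other mitochondrial gene lists were read beside these genes. Of 13 detected partners and assembly factors of the respiratory chain whose symbols do not meet the rule, 1 was at least 1.5-fold higher with FGF2 and none lower (median 0.053). That gene was Gpd2, the mitochondrial glycerol-3-phosphate dehydrogenase, which passes electrons of cytosolic origin to ubiquinone. Gpd2 had 539.95 with FGF2 and 261.4 in control (1.05 ± 0.075, 2.07-fold higher), and was at 0.83 without scaling. A dimmer Gpd2 probe was detected with FGF2 only and allows only a bound, at least 1.05-fold higher. With the mean of all detected probes per gene, Gpd2 was at 0.56, under 1.5-fold. The electron carrier cytochrome c (Cycs) had 864.1 with FGF2 and 637.7 in control (0.44 ± 0.074), and Cyc1, the cytochrome c1 subunit of complex III, 698.3 with FGF2 and 546.95 in control (0.35 ± 0.071). The lowest gene of the list was Etfa, which feeds electrons from fatty acid oxidation into the chain, at −0.19 ± 0.062.

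Of 6 detected import partners, chaperones and proteases, 2 were at least 1.5-fold higher and none lower (median 0.23). Hspa9, the ATP-driven motor that pulls proteins through the presequence translocase, had 1310 with FGF2 and 656.4 in control (0.997 ± 0.067, 1.996-fold higher). Hspd1, the matrix chaperonin, had 2651 with FGF2 and 1588 in control (0.74 ± 0.082, 1.67-fold higher), while its cochaperonin Hspe1 was at 0.24 ± 0.080. Mipep, which trims imported proteins, was the lowest at 0.073. Hspa9 and Hspd1 thus lay above each of the 8 detected TIM and TOM genes. Without scaling, Hspa9 was at 0.74 and Hspd1 at 0.52.

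Of pyruvate dehydrogenase and the citric acid cycle, 5 detected genes are reported, and all 5 lay above 0 (median 0.33). Without scaling 3 of the 5 did. Among all 3005 detected named genes 1657 lay above 0, and 771 did without scaling. Of the 5 genes, 1 was at least 1.5-fold higher. Dlst, a core enzyme of the oxoglutarate dehydrogenase complex, had 1013 with FGF2 and 647.2 in control (0.65 ± 0.054, 1.57-fold higher), but 0.38 without scaling and 0.57 with cyclic loess, both under 1.5-fold. Mdh2 (malate dehydrogenase) was at 0.39, Idh3b at 0.33, Ogdh at 0.19 and Me2 at 0.049. Sdhb and Sdhc of complex II, at 0.32 and 0.25, lay within the range of these genes.

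Genes for mitochondrial fission, fusion and outer membrane channels differed little. Vdac1, the main outer membrane channel, had 5622 with FGF2 and 5596 in control (0.0066 ± 0.061), and the 4 detected genes lay between −0.091 (Vdac3) and 0.089 (Mfn1). Of 3 detected genes for mitochondrial DNA upkeep and biogenesis, the GABP subunit genes Gabpa and Gabpb1 were near the detection limit, Gabpa detected in control only, and Mterf4 was at −0.0014. The Yy1 probe and the Ppargc1b probe were not detected. No protein subunit encoded in mitochondrial DNA has a named probe here.

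Set beside other large complexes, the 32 detected mitochondrial ribosomal protein genes had a median of 0.072, with 1 gene at least 1.5-fold higher, Mrps6 at 1.60 ± 0.065. The 14 detected proteasome genes had a median of 0.19, with 2 at least 1.5-fold higher and 2 lower. The higher count was 0 without scaling and with cyclic loess, and 3 in the authors' deposited value table. With median scaling 1 was higher and 1 lower. Psmb10 was the lowest at −0.99 and Psmb5 the highest at 0.62. The other lower gene, Psmb8 at −0.66, was detected in control only, so its ratio is a bound. Psmd2, the other higher gene, was at 0.59 on its brightest probe and 0.098 on a second detected probe. Glycolysis, the cytosolic route to ATP, had 6 of 13 detected genes at least 1.5-fold higher and none lower (median 0.53), from Pfkl at −0.069 to Eno1 at 1.37. Without scaling 3 of the 13 were at least 1.5-fold higher (Aldoa, Pkm and Eno1), and 8 were in the authors' deposited value table. Gpi1, at 0.64 on its brightest probe, was at 0.30 on a second detected probe. Tpi1, at 0.53 on its brightest probe, was at 0.18 on a second detected probe. The glycolysis median exceeded that of all genes by between 0.50 and 0.61 under the 6 scalings. With the mean of all detected probes per gene it exceeded that median by 0.44. With 1 array per group, whether the respiratory chain and glycolysis genes differ in their response to FGF2 cannot be tested.

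**Figure D4:**
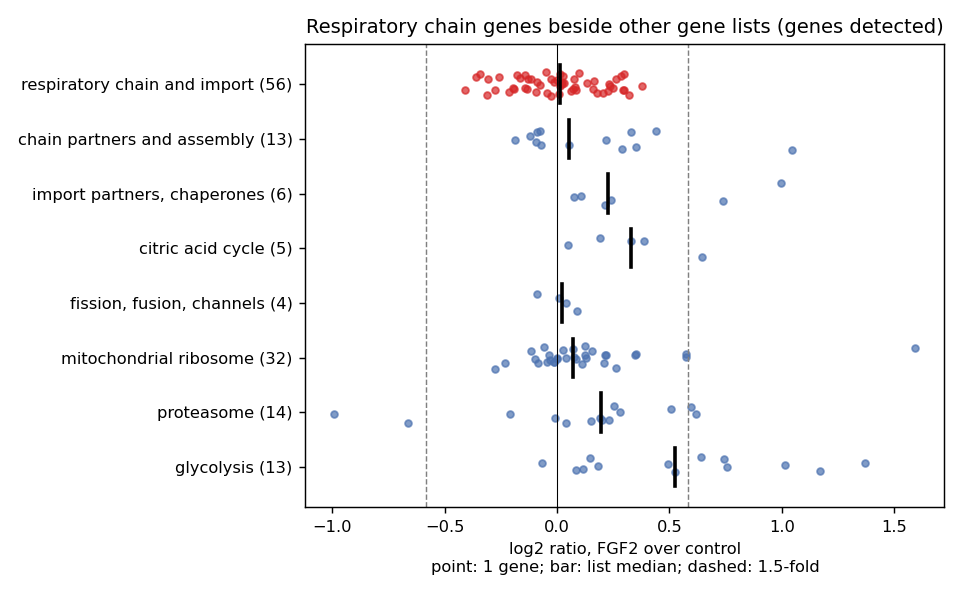
Log2 ratio, FGF2 over control, of each detected gene (points) in the respiratory chain and import set (red) and in 7 other lists (blue), with list medians as black bars, gene numbers in brackets and 1.5-fold as dashed lines. The red points stay inside the dashed lines, while 6 of 13 glycolysis genes lie beyond the right one after quantile normalization.

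The ratios of genes with and without a promoter match overlapped. The 6 detected members with an NRF1 match ranged from −0.41 (Cox6a1) to 0.29 (Ndufaf4), with a median of 0.082, beside 0.013 for 41 members without a match. The 18 with an ETS match had a median of 0.0059, beside 0.019 for 29 without. The 4 with a YY1 match lay between −0.026 (Ndufs4) and 0.16 (Ndufc1).

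On the FGF2 array 7424 of 24044 probes (30.9%) and on the control array 7599 (31.6%) had a detection score of at least 0.99. Of 8 fibroblast markers with a named probe 7 were detected, among them the collagen genes Col1a1, Col1a2 and Col3a1, and 4 of the 7, these 3 and Fbln1, were at least 2-fold lower with FGF2. The other 3 were Dcn at −0.099, S100a4 at 0.14 (−0.12 without scaling) and Prrx1 at 0.79, 1.73-fold higher (0.54 without scaling). No marker of endothelial cells (0 of 2) or pluripotent stem cells (0 of 5) was detected. Of other markers with a named probe, 2 of 7 for leukocytes, 2 of 4 for epithelium, 3 of 5 for neural cells, 1 of 1 for muscle and 1 of 2 for fat cells were detected, 6 of these 9 on 1 array only. With FGF2, 5 of the 9 were at least 1.5-fold higher (4 without scaling), beside 5.29% of all detected named genes (2.70% without scaling). These were Chrna1 (at least 6.53-fold), Gap43 (2.55-fold), Cd53 (at least 1.82-fold), Nes (at least 1.74-fold) and Krt18 (at least 1.52-fold). Chrna1, Cd53, Nes and Krt18 were detected on the FGF2 array only, so they joined the 9 through the array where they are higher. The count is therefore not a result about these cell types. Lpl, detected in control only, was at least 3.35-fold lower. Lyz2, the other detected leukocyte marker, was 1.498-fold lower (−0.58, or −0.77 without scaling). Cldn4 and Tubb3 were at −0.0078 and −0.0011. Second probes of Chrna1, Nes, Lpl and Lyz2 were not detected on either array. The part of the 9 markers in the ratios above was not tested. In bulk RNA, a change in the number of cells of a type and a change per cell cannot be told apart.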

How the data were processed

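The deposited table of each array holds 3 values per probe, per the file headers: the mean intensity of its beads, their standard deviation as an intensity, and a detection score from 0 to 1. A value table from the authors gives 1 more intensity per probe and array, empty where that score is under 0.99, made by a method that no source used here states. BeadStudio 1.0 produced the signals, per the submitters' processing notes, and 300 ng of RNA was amplified with 6 h of transcription, per the labels' protocols.

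Probe identifiers with 1 or 2 zeros after scl were named by reading the digits that follow as NCBI gene numbers of the RefSeq table (GRCm38.p6). This named 8884 of 24044 probes (36.9%), and the names rest on this reading, not on a probe annotation. Both arrays were quantile normalized, because the 90th percentiles of signal (548.4 with FGF2, 649.8 in control) differed. Values under the lowest normalized signal of a detected probe (191.7 with FGF2, 188.45 in control) were raised to that floor before log2 was taken. Each gene was represented by its brightest probe over both arrays. No background was subtracted, which can understate folds of dim genes. The file headers name the bead value a standard deviation. No source used here states whether it is the spread over beads or the error of their mean, so the ± may be either.

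With 1 array per group there was no test, and genes were counted at 1.5-fold and 2-fold. In each group the highest and lowest ratio, the gene of highest mean signal, tissue forms and genes past 1.5-fold were named with values, and the other members with their ratios. Members and lists were chosen with earlier results of these data known, and 1 gene of the citric acid cycle list is not reported here. The scaling was tested on simulated data, with known folds set only on probes far above the floor. The floor was not tested on changed genes, and the probe choice was not tested there. Alternatives covered scaling, background (limma 3.58.1, normexp with an offset of 50, and cyclic loess), the floor, the detection threshold and the probe choice. Python 3.11.15, numpy 2.4.6, pandas 2.3.3 and R 4.3.3 were used.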

Additional observations from a re-analysis of the deposited data

How the results depend on the processing

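No member was at least 2-fold higher or lower under any of the 9 alternatives, and none was at least 1.5-fold higher. The count of members at least 1.5-fold lower was 0 under 8 alternatives and 1 without scaling (Uqcrb, −0.61). The members' median log2 ratio was 0.013, moved to −0.18 without scaling and to 0.094 in the authors' value table, and stayed within the median bead error of 0.072 under the other 7 alternatives, as the median of all genes moved with it. Single members moved by more than their bead error for all 56 genes without scaling, 41 in the value table, 11 with median scaling, 9 with loess and 3 with the mean of all detected probes. The lowest member was Cox6a1, Uqcrb or Timm21 depending on the setting, and the highest was Timm8b under every setting. No paired analysis was possible because each group has 1 array, and for the same reason no replicate could be left out. The main values keep their background: Sdhaf3, close to the detection limit, was at −0.087, against −0.11 after normexp and −0.21 in the value table, while Ndufb7 stayed within 0.013 of 0 in all 3.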
